A study of Homo sapiens with 14 samples.

Results

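Across 4 pooled CRISPR screens, guides against 52 genes of the SLC1, SLC6, SLC7, SLC36 and SLC38 amino acid transporter families were followed through growth and oxaliplatin treatment. The members are the genes whose symbol starts with SLC1A, SLC6A, SLC7A, SLC36A or SLC38A and a number, without SLC7A5, SLC7A8 and SLC7A11. They comprise 7 SLC1, 19 SLC6, 10 SLC7, 4 SLC36 and 11 SLC38 transporters. The remaining member, SLC7A6OS, is not a transporter; it came in through its symbol, which names a gene that overlaps SLC7A6 on chromosome 16. The members were targeted by 208 of 77441 knockout guides (52 of 19114 genes) and by 155 of 56762 activation guides (52 of 18886 genes).

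The cells were of the RKO and SW620 lines, both established from human colorectal carcinomas. For knockout they expressed Cas9 and carried the Brunello guide library. For activation they expressed dCas9-VP64, a cutting-dead Cas9 fused to a transcription activator, and carried the Calabrese library. Each screen was sequenced at day 0, at day 20 without drug, and at day 20 with oxaliplatin, a platinum compound that crosslinks DNA. RKO received 1.9 µM of the drug, and SW620 received 0.38 or 0.5 µM. All cells had been selected for the Cas9 or dCas9-VP64 construct and for the guide vector, and the labels give RKO and SW620 different culture media, both with added glutamine. The labels name 1 library for each of the 14 conditions, so no comparison below has a replicate or a test, and each one compares 2 libraries.

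These families move amino acids and related small molecules across the plasma membrane and the lysosomal membrane. SLC1 members carry glutamate and aspartate or exchange neutral amino acids. SLC6 members carry neurotransmitters, taurine, creatine and neutral amino acids with sodium. The SLC7 family holds the cationic amino acid transporters and the light chains that pair with SLC3A1 or SLC3A2. SLC36 members are coupled to protons, and SLC38 members carry glutamine, alanine and other neutral amino acids. Growing tumour cells draw on several of them, SLC1A5, SLC38A2 and SLC7A1 among the best known, and the lysosomal SLC38A9 and SLC36A1 report amino acid supply to the growth kinase mTORC1. Because many members share substrates, loss of 1 gene can leave transport of its substrate in place.

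Sequencing depth ran from 3647823 counts in the untreated SW620 activation library to 69526489 in the SW620 knockout library of day 0. The top 1% of guides held between 2.16% and 3.88% of the counts of the day 0 and untreated libraries, and between 7.2% and 52.8% of those of the treated ones. The treated RKO activation library was the least even: the median guide had 21 counts, and 21 of the 155 member guides had 0. Here 3 counts were taken as the floor of a guide at 0. Intervals given for a guide cover counting error only, since reads are not independent molecules.

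Counts were scaled by the median ratio between libraries. A guide's log2 fold used a pseudocount of 5 scaled counts, and a gene's value is the median over its guides, 4 in most knockout and 3 in most activation cases. A gene was called when this median was at least 1 in size on the log2 scale, which is 2-fold, and more than 50% of its guides lay beyond the central 95% of non-targeting guides on the same side. All 52 members had enough guides for a value in all 10 comparisons. Scaling by non-targeting guides instead moved the median of all genes in the knockout comparisons by -0.23 (RKO, oxaliplatin), -0.50 (RKO, untreated), -0.31 and -0.96 (SW620 at 0.38 and 0.5 µM) and -0.26 (SW620, untreated), and in RKO activation by -2.10 under oxaliplatin and -0.10 without drug. Values above or below 0 are therefore relative to the median ratio over the guides counted in every library of a screen. This need not be the median gene: in RKO activation under oxaliplatin the median of all genes was -0.80. With scaling by non-targeting guides, the members' median went from above to below 0 in RKO knockout under oxaliplatin (0.14 to -0.08), RKO knockout without drug (0.17 to -0.33), SW620 knockout at 0.38 µM (0.18 to -0.13) and RKO activation without drug (0.07 to -0.03). Beside each count of called members stands the share of all genes called by the same rule, except in some of the alternative runs of the last section.

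The activation library acts at promoters, so the promoters of 3 members described guide by guide in the activation screens are shown: SLC38A2, called lower in SW620 at 0.5 µM, SLC36A2, called lower in RKO without drug and under oxaliplatin, and SLC7A1, the member whose median differed most between the SW620 doses. Each line is the 250 bases before the start, 5′ to 3′ on the gene's own strand, the minus strand in all 3 cases, from RefSeq on GRCh38.p14. Capitals mark matches on either strand to CCAAT and GGGCGG, overlapping matches included. The windows are chr12:46372774-46373023 for SLC38A2, chr13:29595689-29595938 for SLC7A1 and chr5:151347560-151347809 for SLC36A2.
SLC38A2: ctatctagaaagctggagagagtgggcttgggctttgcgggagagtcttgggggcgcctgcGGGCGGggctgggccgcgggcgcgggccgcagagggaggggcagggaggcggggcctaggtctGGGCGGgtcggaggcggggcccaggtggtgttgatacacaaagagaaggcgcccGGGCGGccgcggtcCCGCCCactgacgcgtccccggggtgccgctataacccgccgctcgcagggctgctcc
SLC7A1: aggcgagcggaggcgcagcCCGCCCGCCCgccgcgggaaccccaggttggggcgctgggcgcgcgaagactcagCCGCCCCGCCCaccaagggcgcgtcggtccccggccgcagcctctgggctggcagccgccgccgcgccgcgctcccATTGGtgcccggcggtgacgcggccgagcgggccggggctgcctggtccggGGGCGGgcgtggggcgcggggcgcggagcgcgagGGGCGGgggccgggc
SLC36A2: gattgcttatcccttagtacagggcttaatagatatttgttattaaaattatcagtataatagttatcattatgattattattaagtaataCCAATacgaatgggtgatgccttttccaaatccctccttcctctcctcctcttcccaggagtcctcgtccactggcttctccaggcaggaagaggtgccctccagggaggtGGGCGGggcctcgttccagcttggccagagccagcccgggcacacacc
The SLC38A2 window held 4 matches to GGGCGG and none to CCAAT, and 73.6% of its bases were G or C. The SLC7A1 window held 6 and 1 at 84.4% G or C, and that of SLC36A2 held 1 of each at 48.0%. Over all 27305 genes with a window, 42.3% held GGGCGG, 33.0% held CCAAT, and the median G or C content was 58.0%. The letters TGATGNAAN, a form of the amino acid response element, were in 3.18% of all windows and in 0 of these 3. Bases outside the windows, such as those after the start, were not searched, so the 0 does not show that a gene lacks the element. The matches describe letters only and bear on no factor's binding. Guide positions within these windows were not used here.

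Without drug, SLC7A6OS was the only member whose knockout guides were called depleted over 20 days, and it was so in both lines. It is the counterpart of a yeast protein that brings RNA polymerase II into the nucleus. In RKO its guides had 365, 569, 336 and 386 scaled counts at day 0, and 177, 186, 21.9 and 108 at day 20. All 4 guides lost abundance beyond the non-targeting range of -0.13 to 0.96, with log2 folds of -1.02, -1.59, -3.67 and -1.79 and a median of -1.69, which is 3.23-fold lower. The interval of the strongest guide ran from -4.53 to -3.41. In SW620 the same guides went from 755, 910, 556 and 667 to 288, 763, 188 and 386, with folds of -1.38, -0.25, -1.54 and -0.78. The SW620 median was -1.08, and this call was lost with the mean of the guides (-0.99) and with the largest guide left out (-0.78). Here and below, the largest guide left out of a gene's value is the one whose log2 fold is largest in size, whichever its sign. The second guide was the least depleted in SW620 at an interval of -0.37 to -0.14. SLC7A6, whose gene overlaps SLC7A6OS, had medians of 0.38 in RKO and -0.48 in SW620.

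The share of all genes called lower in these untreated comparisons was 11.6% in RKO and 1.2% in SW620, against 1 member of 52 (1.92%) in each, and no gene at all was called higher. The member median was 0.17 in RKO, beside 0.09 for all genes, and -0.01 in SW620, beside 0.04. Members above 0 numbered 44 in RKO (84.6%, beside 61.5% of all genes) and 25 in SW620 (48.1%, beside 56.9%). In RKO the highest member was SLC6A9, a glycine transporter, at 0.63. In SW620 it was SLC38A6, an SLC38 member of little known substrate, at 0.58. Neither was called, and no role group of transporters had a called member in either line. The 5 glutamate and aspartate carriers lay between 0.03 and 0.49 in RKO and between -0.35 and 0.36 in SW620. The 4 proton-coupled members lay between 0.17 and 0.38 in RKO and between -0.10 and 0.30 in SW620. The 5 light chains had medians below 0 throughout in SW620, from -0.48 to -0.03, and between -0.19 and 0.38 in RKO.

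SLC1A5, SLC7A1 and SLC38A2, followed in every comparison, had medians between -0.54 and -0.49 in SW620 and between -0.03 and 0.24 in RKO. Scaled by non-targeting guides, SLC7A1 stood at -0.53, SLC1A5 at -0.49 and SLC38A2 at -0.25 in RKO. The same scaling moved the median of all genes in SW620 by -0.26, so these RKO values do not compare with the SW620 medians above. SLC1A5, the glutamine exchanger ASCT2, went from 1050, 815, 251 and 710 scaled counts to 874, 457, 187 and 458 in SW620. All 4 of its guides lay under the non-targeting range of -0.17 to 0.65, with a median of -0.52. In RKO its guides moved from 664, 498, 145 and 433 to 920, 485, 150 and 423, a median of 0.01. SLC7A1, the arginine and lysine carrier CAT1, went from 825, 424, 249 and 440 to 657, 388, 130 and 259 in SW620. Its median there was -0.54 with 3 of 4 guides under the non-targeting range, and -0.03 in RKO. SLC38A2, a sodium-coupled carrier of alanine and glutamine, went from 206, 243, 208 and 272 to 181, 136, 118 and 436 in SW620, a median of -0.49. Of its guides, the fourth was higher at day 20 and the other three lower, and its RKO median was 0.24. The taurine transporter SLC6A6 and the light chain SLC7A6, picked after their values were seen, had SW620 medians of -0.60 and -0.48 and RKO medians of 0.01 and 0.38. None of these passed 2-fold.

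Counting only whether most of a gene's guides lay under the non-targeting range, with no minimum fold, 9 members (17.3%) were lower in SW620, beside 13.5% of all genes. They were SLC1A5, SLC38A2, SLC6A6, SLC6A17, SLC7A1, SLC7A6, SLC7A9, SLC7A10 and SLC7A6OS. In RKO 6 members (11.5%) were lower, beside 20.9% of all genes. They were SLC38A10, SLC6A8, SLC6A13, SLC6A18, SLC7A9 and SLC7A6OS, so SLC7A9 and SLC7A6OS were on both lists. This count was added after the data were seen. The lysosomal members SLC38A9 and SLC36A1 were on neither list: SLC38A9 had medians of 0.04 in RKO and 0.22 in SW620, and SLC36A1 had 0.22 and 0.16.

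The line difference was taken guide by guide, RKO minus SW620, for the knockout screens, where both lines share guide numbers. SLC7A6OS had a median difference of -1.18, with guides from -2.13 to 0.35 and 3 of 4 under the non-targeting range of -0.61 to 0.90. By the joint rule 9.71% of all genes were lower and 0.0839% higher in RKO in this difference. SLC7A6OS was the only such member. The differences of SLC1A5 (0.66, guides from 0.47 to 0.79), SLC7A1 (0.51), SLC38A2 (0.48), SLC36A1 (0.09) and SLC38A9 (-0.14) were not called. For SLC1A5 all 4 guides were higher in RKO, yet all lay within the non-targeting range, so a line difference of this size was not beyond the spread of guides that target no gene.

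**Figure D1:**
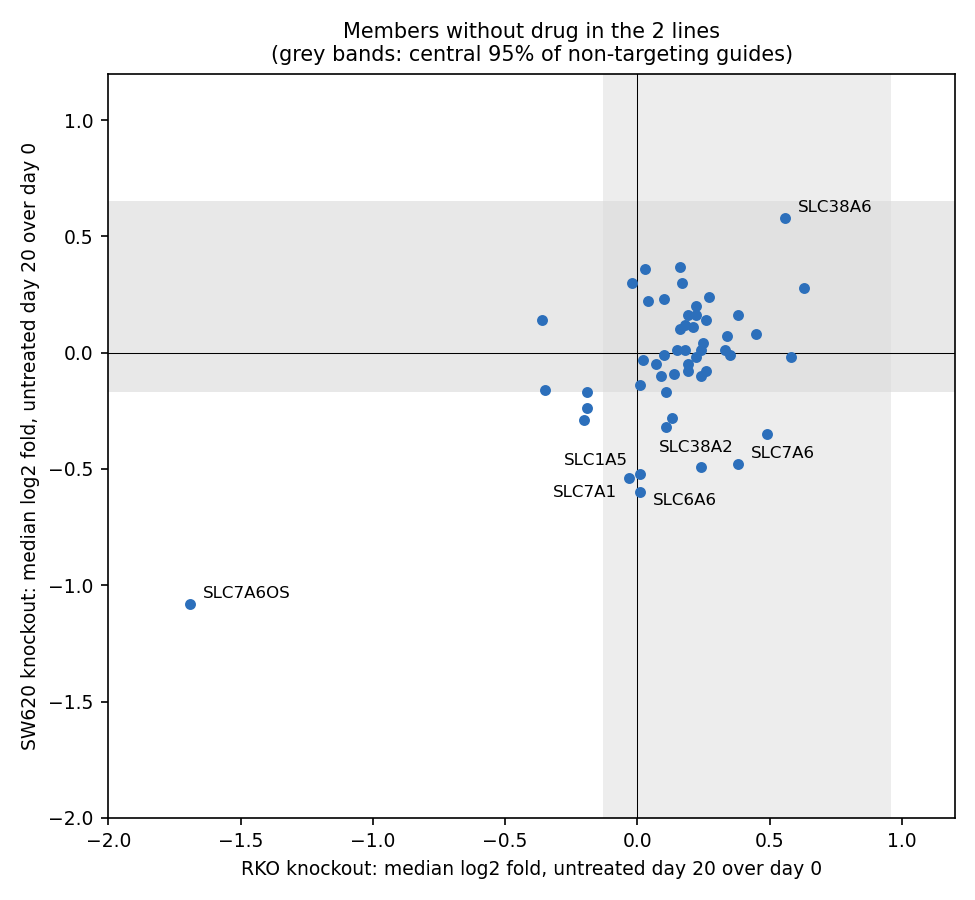
Each point is 1 of the 52 members, placed by its median log2 fold of knockout guides without drug (day 20 over day 0) in RKO on the x axis and in SW620 on the y axis; grey bands are the central 95% of non-targeting guides (-0.13 to 0.96 in RKO, -0.17 to 0.65 in SW620). SLC7A6OS stands alone at -1.69 and -1.08, and SLC6A6, SLC7A1, SLC1A5, SLC38A2 and SLC7A6 lie under the SW620 band but within the RKO band. Unlabelled members do so too, such as SLC1A6 (-0.35 in SW620, 0.49 in RKO), SLC7A10 (-0.32, 0.11) and SLC6A17 (-0.28, 0.13). The bands are of single guides and the points are gene medians.

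Under oxaliplatin, no knockout of a member was called in either direction in RKO at 1.9 µM. By the same rule 0.921% of all genes were called higher and 1.5% lower. Against day 0 in place of the untreated library, SLC6A2 (-1.09), SLC1A4 (-1.05) and SLC7A10 (-1.01) were called lower, beside 13.7% of all genes. The members ran from -1.26 to 1.34, with a median of 0.14 beside 0.03 for all genes. Of the 52 members 31 (59.6%) lay above 0, beside 51.6% of all genes. The highest was SLC7A4, counted with the cationic transporters by sequence, whose guides had 147, 133, 355 and 262 scaled counts without drug and 108, 327, 1390 and 704 with it. Its 4 guides all lay inside the non-targeting range of -1.39 to 2.42. The lowest was SLC6A2, the noradrenaline transporter, at -1.26. All 4 of its guides were below 0, from 345, 135, 125 and 229 to 247, 66.9, 37.1 and 74.3, and 2 of them lay under the non-targeting range. SLC1A5 had a median of 1.07, from guides of 0.76, 2.63, 1.37 and -0.22, of which 1 was beyond that range. SLC7A6OS had 1.29, with guides at 0.35, -0.42, 2.23 and 2.35. SLC7A1 stood at 0.82, SLC38A9 at 0.12, SLC38A2 at -0.15 and SLC36A1 at -0.78.

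By role, the 5 cationic members had the highest median in RKO, 0.58, and the 6 carriers of GABA, betaine, taurine and creatine the lowest, -0.31. The cationic members spread from -0.57 to 1.34 and those 6 carriers from -0.92 to 0.10, so the groups overlapped. By 2-fold alone 5 members were higher and 4 lower, beside 11.4% and 7.9% of all genes. The 5 were SLC7A4, SLC7A6OS, SLC6A14, SLC1A5 and SLC7A9, and the 4 were SLC6A2, SLC7A10, SLC36A2 and SLC38A6.

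In SW620 at 0.38 µM, again no member was called in either direction, beside 0.126% of all genes higher and 1.41% lower. Members ran from -1.19 to 1.02, with a median of 0.18 beside 0.04 for all genes. Of them 34 (65.4%) lay above 0, beside 52.5% of all genes. By 2-fold alone 2 members were higher and 1 lower, beside 4.98% and 8.56% of all genes. SLC7A4 was again the highest, with 4 of 4 guides above 0 (1.12, 0.91, 1.35 and 0.14) and none beyond the non-targeting limit of 1.81. SLC6A18, a neutral amino acid carrier of kidney epithelium, was the lowest at -1.19. Its guides went from 460, 278, 163 and 792 scaled counts to 277, 193, 28.7 and 248, and 2 of 4 lay under the limit of -1.48. SLC6A2, lowest in RKO, was the second highest here at 1.01, with 4 of 4 guides above 0. Of the members followed throughout, SLC7A6OS had 0.31, SLC1A5 0.23, SLC38A2 0.14, SLC7A1 0.11, SLC38A9 -0.03 and SLC36A1 -0.19. The 5 glutamate and aspartate carriers were all above 0, from 0.18 to 0.97, and their guides gave no call.

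At 0.5 µM in SW620 the members spread more widely, from -3.12 to 2.21, and still none was called; 0.0262% of all genes were called higher and 0.613% lower. Non-targeting guides spread from -3.14 to 4.46 in this comparison, with a median of 0.99. By 2-fold alone 13 members were higher and 12 lower, and 25.1% and 30.4% of all genes were. The members' median was -0.14, beside -0.09 for all genes. The median distance between the lowest and highest guide of a member was 4.78 log2 units, against 2.22 at 0.38 µM, and that of all genes was 4.88.

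SLC38A2 was among the lowest members at this dose. Its guides had 181, 136, 118 and 436 scaled counts without drug, 199, 215, 131 and 237 at 0.38 µM, and 20.8, 7.8, 54.6 and 49.4 at 0.5 µM. All 4 guides were low at the higher dose, with folds of -2.85, -3.46, -1.04 and -3.02 and a median of -2.93, the 2.5 percentile of all genes. Only 1 of them lay under the non-targeting limit of -3.14, so the gene was not called. At 0.38 µM its median was 0.14. The second guide rested on 3 counts in the treated library, with an interval from -6.41 to -2.55. SLC6A16, an SLC6 member without a settled substrate, was lower still at -3.12, with guides of -3.28, -2.97, 2.66 and -3.54. Of these, the third stood at 2210 scaled counts after 345, and the other three at 15.6 to 44.2. The highest member was SLC6A12, the betaine and GABA transporter, at 2.21. Its guides went from 659, 788, 423 and 358 to 3340, 3380, 2580 and 419, all above 0 and all inside the non-targeting range.

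Of the lysosomal members, SLC36A1 and SLC38A9 stood above 0 at 0.5 µM in SW620, while SLC38A7 had -0.74 and SLC7A14 -0.41. SLC36A1 had guides of 1.55, 1.79, 0.05 and 2.76 (median 1.67), and SLC38A9 had 1.97, 0.97, 0.55 and 4.08 (median 1.47). All 8 guides of these 2 genes lay above 0 and within the non-targeting range, but the non-targeting guides themselves had a median of 0.99. SLC7A1 (median 1.39) and SLC1A5 (1.18) each had guides on both sides of 0, from -0.70 to 3.05 and from -2.19 to 4.07. SLC7A6OS stood at -0.31. The 3 system A members, SLC38A1, SLC38A2 and SLC38A4, were all below 0, from -2.93 to -1.28. The dose differences of SLC38A9 (2.83), SLC36A1 (1.83) and SLC38A2 (-2.57), 0.5 minus 0.38 µM, lay inside the non-targeting range of -3.63 to 4.54. No member was called in this difference, beside 0.0524% of all genes higher and 0.335% lower at the higher dose. Both doses share their untreated library.

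**Figure D2:**
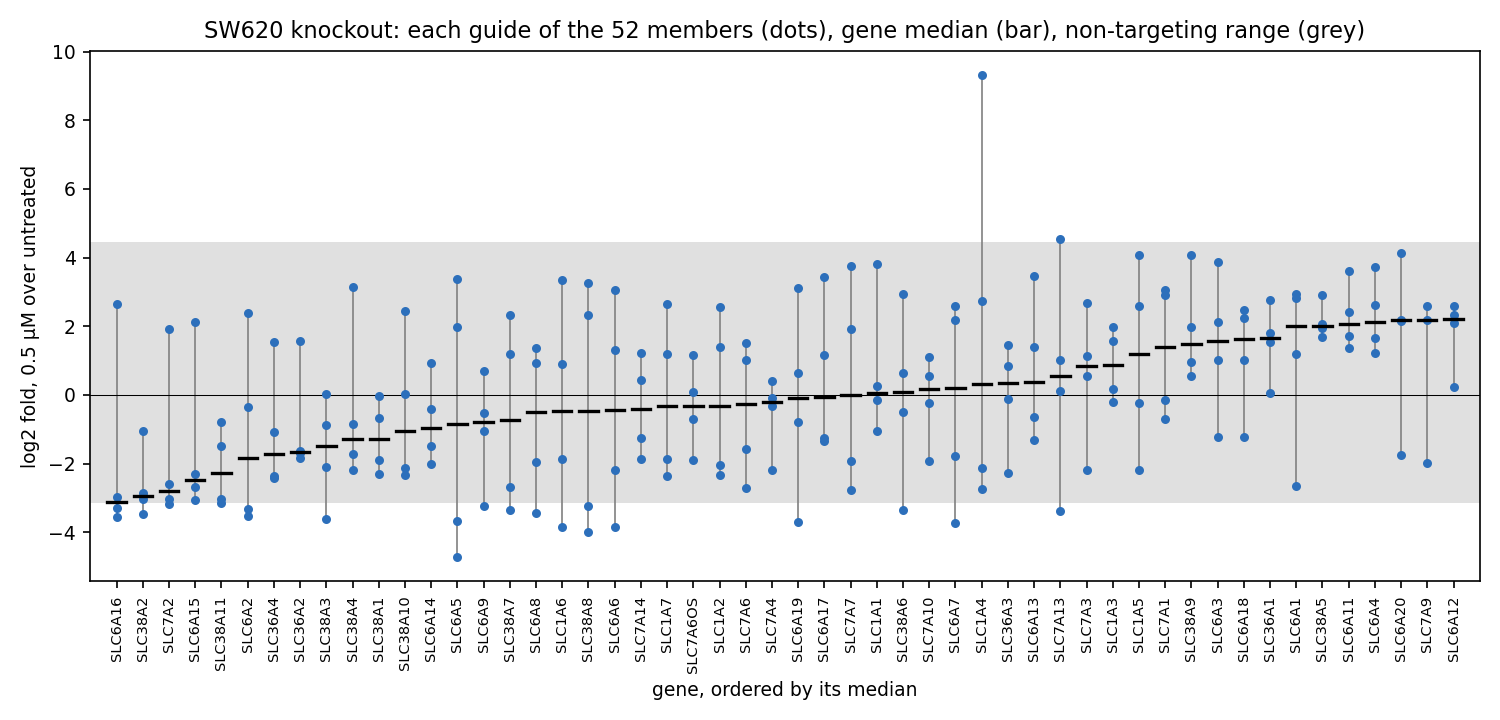
The log2 fold of each knockout guide in SW620 at 0.5 µM oxaliplatin over untreated (y axis) is shown for every member (x axis, ordered by its median), with the medians marked and the non-targeting range of -3.14 to 4.46 in grey. Guides of 1 gene often lie on both sides of 0, the SLC1A4 guide at 9.32 stands far above all others, and the 4 SLC38A2 guides are all below -1.

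Single guides reached very high counts in treated libraries without the rest of their gene. In SW620 at 0.5 µM, 1 guide of SLC1A4, the neutral exchanger ASCT1, had 128313 counts, or 51.3% of all member counts in that library. It went from 516 to 334000 scaled counts, a log2 fold of 9.32. The other guides of SLC1A4 had folds of 2.75, -2.12 and -2.75, and the gene's median was 0.31. With this guide the members held 0.4% of all counts in that library and without it 0.195%, beside 0.269% of guides. In RKO at 1.9 µM, 1 guide of SLC38A10 went from 171 to 13600 scaled counts, and its gene's median was 0.04. In SW620 at 0.38 µM, 1 guide of SLC6A4, the serotonin transporter, reached 12106 counts at a fold of 3.34, while its gene's median was -0.04. None of these genes had a second guide beyond the upper non-targeting limit in the same comparison.

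In the activation screens without drug, 1 member was called lower in RKO and none in SW620. By that rule 0.703% of all genes were lower in RKO and 0.367% in SW620, and none was higher in either. The member in RKO was SLC36A2, a proton-coupled carrier of glycine and proline, whose promoter is printed above. Its guides had 224, 226 and 153 scaled counts at day 0 and 95.4, 76.3 and 292 at day 20. The first and second guides fell, by 1.19 and 1.51 on the log2 scale, while the third stood at 0.91, so the guides disagreed in direction. The median was -1.19, and without the second guide, the one of largest fold in size, it was -0.14. In SW620 the same gene had a median of -0.41.

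No other member was called when activated without drug. In RKO the lowest of them were SLC6A14 at -0.83, with 2 of 3 guides under the non-targeting range, and SLC7A10 at -0.75. The members there had a median of 0.07 beside 0.02 for all genes, and the highest was SLC6A5, a glycine transporter of neurons, at 0.72. Its guides stood at 0.73, 0.72 and -0.22, with an upper non-targeting limit of 0.73. In SW620 members ran from -0.64 (SLC7A10, a light chain for small neutral amino acids) to 0.45 (SLC1A5). SLC1A5 went from 231, 344 and 224 to 317, 392 and 352 scaled counts there, and in RKO it stood at -0.64. Neither value was called. SLC38A2 had -0.09 in RKO and 0.03 in SW620, SLC7A1 had 0.08 and 0.13, SLC38A9 had 0.15 and 0.00, SLC36A1 had 0.09 and -0.13, and SLC7A6OS had -0.10 and 0.06.

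SLC38A2 was the only member called under oxaliplatin in the SW620 activation screen, and it was lower, at 0.5 µM. Its guides had 231, 119 and 226 scaled counts at day 0 and 276, 122 and 209 at day 20 without drug, so they held their level without oxaliplatin. At 0.38 µM they had 29, 54.9 and 214, and at 0.5 µM 14.2, 15.5 and 60.7. The first and second guides were low at both doses and the third at 0.5 µM only. At 0.5 µM the folds were -3.87, -2.63 and -1.71, the median of -2.63 was a 6.2-fold loss, and 2 of 3 guides lay under the non-targeting limit of -2.23. The intervals were -5.33 to -3.38, -4.04 to -2.03 and -2.35 to -1.24. At 0.38 µM the median was -1.09, from guides of -3.05, -1.09 and 0.03, and was not called. The untreated library had 95, 42 and 72 counts for these guides, and with the largest guide left out the value at 0.5 µM was -2.17 and no longer called. The values of the 2 doses rest on the same untreated library.

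By the same rule 1.12% of all genes were called higher and 1.83% lower at 0.5 µM, and 0.719% and 1.7% at 0.38 µM, where no member was called. The member median was 0.01 at 0.5 µM beside 0 for all genes, and -0.23 at 0.38 µM beside 0.01. By 2-fold alone 5 members were higher and 8 lower at each dose. At 0.5 µM 12.4% of all genes were higher and 15.1% lower by 2-fold alone, and at 0.38 µM 8.78% and 10.8% were. At 0.38 µM the lowest member was SLC7A13, a light chain that pairs with SLC3A1, at -1.89 with 3 of 3 guides below 0. At 0.5 µM it stood at 0.26. The highest member at 0.5 µM was SLC36A2 at 1.53, with guides of 1.53, 1.72 and -1.53, and at 0.38 µM it stood at -0.94.

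Guides activating SLC7A1 were high at 0.38 µM and mostly low at 0.5 µM. They had 206, 273 and 198 scaled counts without drug, 1250, 515 and 634 at 0.38 µM, and 46.5, 27.1 and 991 at 0.5 µM. At 0.38 µM all 3 stood above 0, at 2.57, 0.90 and 1.66, the highest median among members at 1.66. At 0.5 µM the first 2 stood at -2.04 and -3.12 and the third at 2.30, with a median of -2.04. Neither value was called. Guide by guide, 0.5 minus 0.38 µM gave a median of -4.02, with 2 of 3 guides under the non-targeting range of -2.76 to 2.76 and the third at 0.64; by this rule 0.938% of all genes were lower at the higher dose. SLC7A1 was the only member called in this difference. Of the other members followed, SLC36A1 had -0.11 at 0.38 µM and 0.77 at 0.5 µM, SLC38A9 -0.07 and 0.35, SLC1A5 -0.72 and -0.28, and SLC7A6OS -0.03 and -0.06.

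**Figure D3:**
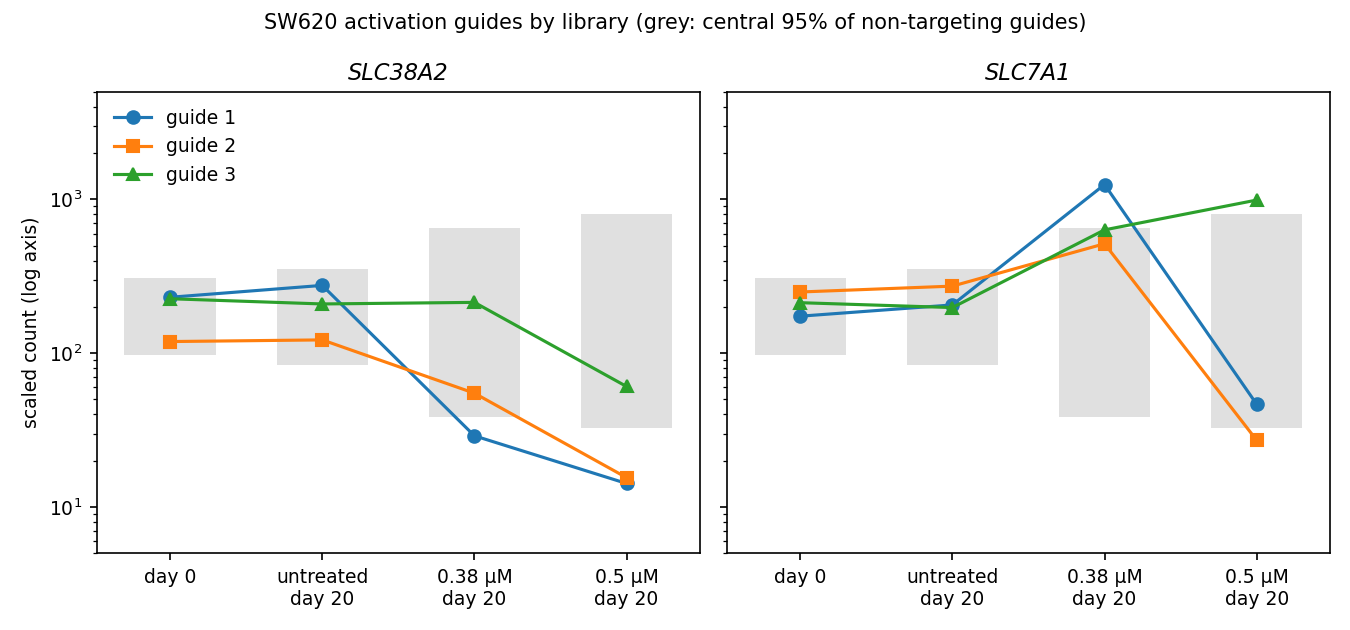
Scaled counts of each of the 3 activation guides (lines) of SLC38A2 and SLC7A1 are shown on a log axis for the 4 SW620 activation libraries: day 0, untreated day 20, and day 20 at 0.38 and 0.5 µM oxaliplatin, with the central 95% of non-targeting guides in grey. The SLC38A2 guides end at 14.2, 15.5 and 60.7 after 276, 122 and 209 without drug, and 2 SLC7A1 guides drop to 46.5 and 27.1 at 0.5 µM after 1250 and 515 at 0.38 µM.

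In the RKO activation screen under 1.9 µM oxaliplatin, 26 of 52 members were called lower and none higher. Of all genes 46.9% were called lower by this rule and 0.181% higher, so the members' share lay near the background. Non-targeting guides there had a median of 2.25 and a central range of 0.63 to 6.22, while the median of all genes was -0.80 and that of members -0.97. With the authors' normalized values these medians were -0.03 and -0.21, and 21 members were called lower, beside 36.9% of all genes called in either direction. Guides thus counted as under the non-targeting range whenever they were below 0.63. By 2-fold alone 10 members were higher and 26 lower, beside 25.9% and 47.2% of all genes.

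The 6 called members with the lowest fitted medians in RKO, from -4.45 to -3.63, were SLC1A3, SLC38A6, SLC1A1, SLC7A9, SLC6A2 and SLC38A7. Their order rests in part on guides at 0 counts and on the pseudocount. SLC1A3, a glutamate carrier, had 104, 155 and 239 scaled counts without drug and 0, 1110 and 0 with it. Its guides at 0 were at least 4.84-fold and 11.1-fold lower, against the floor of 3 counts per guide (21.5 scaled counts), and with them at that bound the gene's median was -2.28. With guides at 0 treated so, SLC38A6 stood at -3.22 and SLC7A9 at -1.64. SLC38A6, with 2 guides, went from 565 and 344 to 100 and 0. SLC1A1, another glutamate carrier, went from 448, 211 and 266 to 0, 7.15 and 1350. SLC7A9, the light chain of cystine uptake, went from 217, 157 and 66.8 to 0, 544 and 0. SLC6A2 went from 531, 326 and 490 to 35.8, 14.3 and 5650, and SLC38A7, a lysosomal glutamine carrier, from 447, 399 and 323 to 14.3, 14000 and 21.5. The treated values of 7.15 (SLC1A1), 14.3 (SLC6A2) and 14.3 and 21.5 (SLC38A7) were also at or under the floor of 21.5 scaled counts. No bound was applied to these guides, so the medians of their genes are uncertain. In 5 of these 6 genes, 1 guide was higher with drug and the others lower. Without their guide of largest fold in size SLC1A1 (-0.91), SLC1A3 (-0.82), SLC6A2 (-0.10) and SLC7A9 (-1.04) were no longer called.

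Of the 52 members, 13 had all guides on 1 side of 0 in this comparison, or 25.0%, beside 28.1% of all genes. SLC6A15, a carrier of branched-chain amino acids and proline, was the highest at 5.13: its guides went from 283, 241 and 411 to 14100, 57.2 and 14500. SLC38A2, called lower in SW620, stood at 2.93 in RKO, with guides at 1970 and 2340 scaled counts after 254 and 290, and 1 at 42.9 after 346. It was not called, since no guide passed the upper non-targeting limit of 6.22. The activation guides of the lines carry different numbers, so this difference between lines was not taken guide by guide. SLC36A2 had 95.4, 76.3 and 292 scaled counts without drug and 7.15, 21.5 and 7.15 with it, and was called lower at -3.05 with 3 of 3 guides below 0. All of these treated values were at or under 21.5 scaled counts, the floor of 3 counts. The bound for guides at 0 was not applied to them. SLC7A6OS was called lower at -2.31. SLC7A1 (0.66), SLC38A9 (0.13), SLC36A1 (-0.59) and SLC1A5 (-0.66) were not called. Scaled by non-targeting guides, SLC7A1 stood at -1.50 and was not called, while SLC38A9 (-2.03), SLC36A1 (-2.73) and SLC1A5 (-2.73) were called lower. With that scaling the median of all genes was -2.90 and that of members -3.00, so these called values lay above the median gene. In this library 1 guide of SLC7A14, a lysosomal member of the cationic group, held 23892 counts, or 31.0% of all member counts, at a fold of 9.27, while its other guides stood at -2.39 and -5.25.

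**Figure D4:**
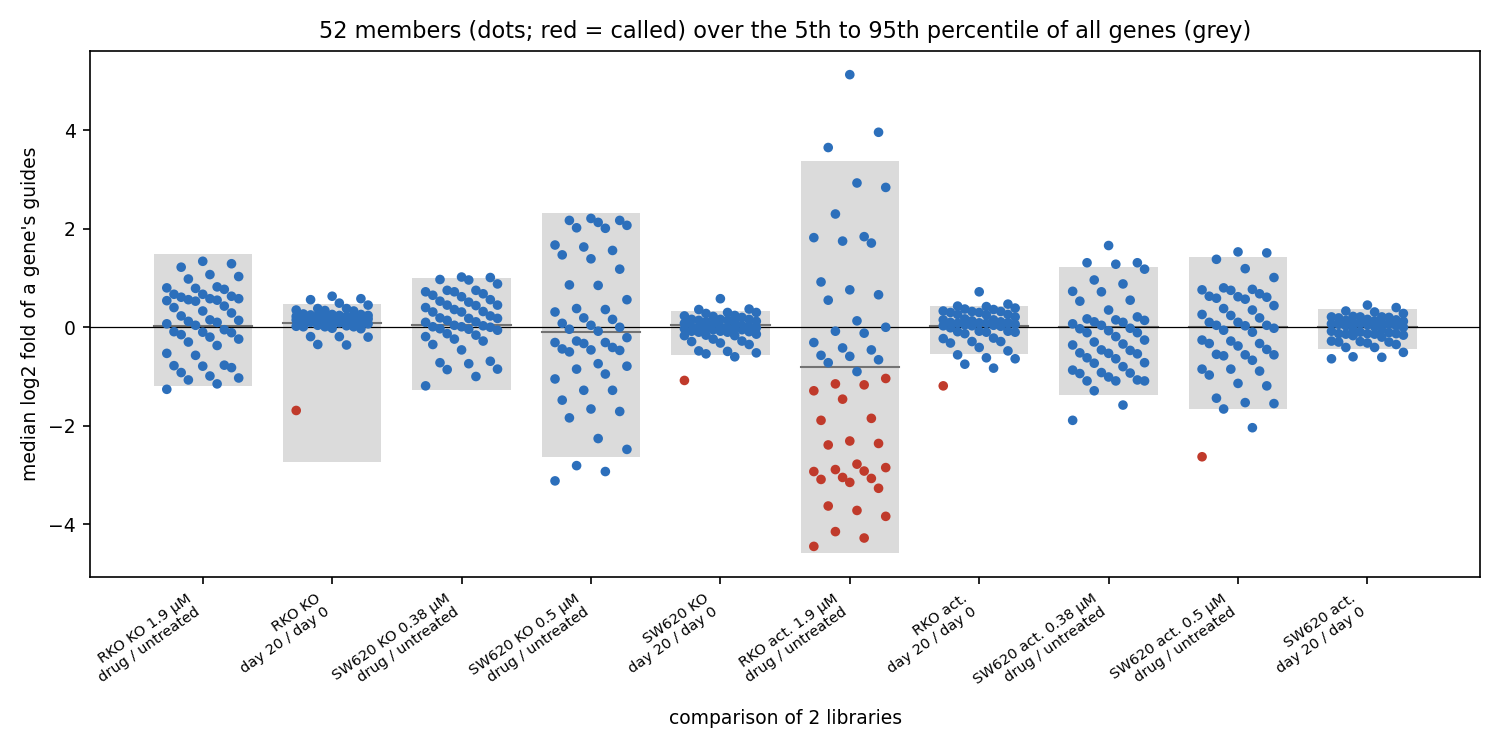
Median log2 folds of all 52 members (points, y axis) in each of the 10 comparisons (x axis) are shown beside the 5 to 95 percentile range of all genes, with called members marked. Members lie closest together in the untreated comparisons and farthest apart in RKO activation under oxaliplatin, where the all-gene range is -4.58 to 3.37 and 26 members were called.

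Compared across screens, no member was called in the same direction under oxaliplatin in both lines, and no member was called in a knockout comparison with oxaliplatin. SLC38A2 was low at 0.5 µM in SW620 with both libraries, at -2.93 for knockout and -2.63 for activation, the second of these called. The knockout value is from guides that disrupt the gene and the activation value from guides directed at its promoter, and both were set against their own untreated library. In RKO the corresponding values were -0.15 and 2.93, neither called. The 2.93 stood beside a non-targeting median of 2.25 and range of 0.63 to 6.22, and 1 of its guides was lower with drug. Members outside the 5 to 95 percentile range of all genes numbered from 1 of 52, in RKO knockout under oxaliplatin, to 8 of 52, in untreated RKO activation. By construction this range leaves out the lowest 5% and the highest 5% of all genes.

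The partners that some members need were read from the same fits. SLC3A2, the heavy chain of SLC7A6, SLC7A7 and SLC7A10, was called lower in RKO knockout under oxaliplatin at -1.90, beside 1.5% of all genes, with 4 of 4 guides between -2.51 and -1.49. The members among the light chains that pair with it had 0.77 (SLC7A6), 0.40 (SLC7A7) and -1.15 (SLC7A10) in that comparison, and none of these was called. SLC7A5, SLC7A8 and SLC7A11, left out of the members, were not read here. In SW620 knockout SLC3A2 had 0.37 at 0.38 µM and -1.85 at 0.5 µM, neither called. SLC3A1, the heavy chain of SLC7A9, had 0.14 in RKO, where SLC7A9 had 1.03. In RKO activation under oxaliplatin SLC3A2 was called lower at -2.20, with 3 of 3 guides below 0, but so were 46.9% of all genes. In the other 8 comparisons SLC3A2 was not called. Of 18 genes of other amino acid transporter families, 0 were called in any comparison but RKO activation under oxaliplatin, where 8 were lower, a share near the 46.9% of all genes called lower there. Of 13 amino acid sensing genes, 1 was called higher in SW620 knockout at each dose, beside 0.126% (0.38 µM) and 0.0262% (0.5 µM) of all genes. It was EIF2AK4, the kinase that senses uncharged transfer RNA, at 3.77 and 5.25. Without drug EIF2AK4 was called lower there (-1.24), beside 1.2% of all genes. The values of both doses rest on that untreated library. LAMTOR4, part of the lysosomal scaffold of mTORC1, was called lower in RKO knockout under oxaliplatin (-1.58), beside 1.5% of all genes. GCN1L1, an activator of EIF2AK4, was called lower in RKO knockout without drug (-1.11), beside 11.6% of all genes. In RKO activation under oxaliplatin 4 of 11 measured sensing genes were called lower, beside the same 46.9% of all genes.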

How the data were processed

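Guide cassettes were counted in 14 libraries, 1 per condition. The authors deposited raw counts per guide, all whole numbers, whose sums differ between libraries. A second deposited table per screen holds a normalized signal, which equals the count times 1 constant per library. How these constants were made, and what cutadapt 4.0 and MAGeCK 0.5.7 (named in the submitters' processing notes) were used for, is not stated in the sources used here.

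Members were found by symbol, and 52 of 52 have a current RefSeq symbol. For each screen, scaling took the median ratio over the guides counted in all its libraries. Guides with a mean scaled count under 20 in the libraries compared were left out, and genes needed 3 knockout or 2 activation guides. With 1 library per condition no test between conditions has an error term, so the spread of non-targeting guides (1000 knockout, 496 activation) took its place in the call. The members, role groups, pathway lists and rules were chosen with earlier results of these data known. Named genes are the called members (up to 6 per direction), the highest and lowest member of each comparison otherwise, and SLC1A5, SLC38A2, SLC38A9, SLC7A1, SLC36A1 and SLC7A6OS throughout. The count over the list of subunits and partners is not reported here. Scaling, pseudocount, filter, guide summary, call rule and control library were varied. The calculation was tested on simulated data. Python 3.11.15, numpy 2.4.6 and pandas 2.3.3 were used. All columns were matched to a sample. Of 52 members 40 have a promoter entry in the RefSeq table.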

Additional observations from a re-analysis of the deposited data

Results flagged for a closer look

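SLC7A6OS knockout guides were depleted more in untreated RKO than in untreated SW620. The median difference over its guides was -1.18, with gene values of -1.69 and -1.08, and 3 of 4 guides differed beyond the non-targeting range. With 1 library per line and time this difference was not tested, and in the same sense 9.71% of all genes were lower in RKO.

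SLC7A1 activation guides differed between the oxaliplatin doses in SW620. The median of 0.5 minus 0.38 µM was -4.02, with gene values of -2.04 and 1.66, and 2 of 3 guides differed beyond the non-targeting range while the third stood at 0.64. The difference was not tested, and both doses share 1 untreated library, in which these guides had 71, 94 and 68 counts.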

How the results depend on the processing

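Alternative runs were followed gene by gene only for the named members: up to 6 called per direction in each comparison, the extremes otherwise, and the fixed genes. None of the called members among these changed direction under any alternative run. The other members called in RKO activation under oxaliplatin were not followed in this way. With 2-fold alone in place of the joint rule, called members under oxaliplatin numbered 9 in RKO knockout, 3 and 25 in SW620 knockout at 0.38 and 0.5 µM, and 13 at each dose in SW620 activation, which follows from dropping the non-targeting condition. With no minimum fold, an alternative added after seeing the data, the untreated counts were 6 (RKO knockout), 9 (SW620 knockout) and 2 (RKO activation). In the knockout comparisons these stood beside 20.9% (RKO) and 13.5% (SW620) of all genes. In untreated RKO activation 7.1% of member guides and 5.6% of all targeting guides lay under the non-targeting range. The mean of the guides gave 0 in untreated SW620 knockout (SLC7A6OS at -0.99) and 0 in untreated RKO activation (SLC36A2 at -0.60). Leaving out each gene's guide of largest fold in size gave 0 in both of these (SLC7A6OS at -0.78, SLC36A2 at -0.14). It also gave 0 in SW620 activation at 0.5 µM (SLC38A2 at -2.17), and 1 in RKO knockout under oxaliplatin, SLC38A2 at -1.45. The share of all genes called is not given here for that run. Day 0 as control gave 3 in RKO knockout under oxaliplatin (SLC1A4, SLC6A2 and SLC7A10, all lower, beside 13.7% of all genes) and 2 in SW620 activation at 0.5 µM (SLC38A2 and SLC6A14, both lower, beside 2.49%). The cause of these last changes was not tested. The authors' normalized values, a pseudocount of 1 and the other filters kept every count within 1.5 times of the one reported, though the authors' values moved the median of all genes by 0.77 in RKO activation under oxaliplatin. Scaling by non-targeting guides moved the median of all genes by -2.10 in RKO activation and by -0.96 in SW620 knockout at 0.5 µM, and by -0.50 in untreated RKO knockout; uncalled values near 0 changed sign with it, such as SLC1A5 (0.01 to -0.49) and SLC38A2 (0.24 to -0.25) in untreated RKO knockout. The count in RKO activation under oxaliplatin ran from 18 to 39 over all alternatives. It was 39 with no minimum fold, where 67.1% of member guides and 63.3% of all targeting guides lay under the non-targeting range. No paired analysis was possible because each condition has 1 library. Depth limits the treated RKO activation library, with a median of 21 counts per guide, and the untreated SW620 activation library, with 62.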
